A study of Sus scrofa with 8 samples.

Results

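The nuclei described here were the barcodes of a pig retina single-nucleus RNA sequencing series that carried the ON bipolar genes TRPM1 and GRM6 and few transcripts of rod bipolar cells. A nucleus was selected when it held at least 1000 unique molecular identifiers (UMIs, counted transcripts), at least 3 UMIs of TRPM1 and GRM6 together, at most 1 UMI of the rod bipolar genes PRKCA, CA8 and PRKCQ together, and at most 1 UMI of GAD1, GAD2, SLC6A9, PTPRC and PDE6C together, which mark amacrine cells, leukocytes and cones. This rule selected 20317 nuclei, which were 5.58% of the 364259 barcodes with at least 1000 UMIs and came from 388491 barcodes in all. They are called ON cone bipolar nuclei below, with the reservation on that name given after the biological background. The members were thus chosen by the measured counts of 10 genes, whose levels are given as a description without a test.

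All animals were female Yucatan minipigs a few months old. Each received hyaluronidase (Vitrase) into the vitreous of both eyes before dosing and weekly methylprednisolone, a corticosteroid, from before dosing onward, in the vehicle arm as in the vector arm. The AAV arm received AAV2.7m8/CAG-GFP, a capsid-engineered adeno-associated virus whose ubiquitous CAG promoter drives green fluorescent protein, in both eyes at 5e11 vector genomes per eye. The vehicle arm received the buffer alone. Retinas were collected at week 2 or week 4. Week 4 covers a pair of terminal days in the study, and the labels do not assign them to animals.

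There were 4 groups of 2 retinas. At week 2, both AAV retinas came from 1 animal and both vehicle retinas from another, so no test was possible. At week 4, the 2 AAV retinas and the 2 vehicle retinas each came from separate animals. Each of the 4 groups carried its own batch label, which only repeated the treatment and week and named no processing batch. At neither week can a batch be told apart from the treatment. The retinas were frozen before nuclei were isolated and sorted by DAPI, a DNA stain, and each retina was run on 4 lanes. The libraries held between 121544835 and 173614051 UMIs per retina. The selected nuclei numbered 2508 and 2506 in the AAV retinas and 2717 and 2655 in the vehicle retinas at week 2, and 2263 and 2080 against 2629 and 2959 at week 4. Their median depth was 2862 UMIs. Any 2 of the 32 lanes shared at most 65 barcodes, which was 0.514% of a lane, and 45 of the selected barcodes occurred in 2 lanes.

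ON cone bipolar cells are interneurons that carry the signal of cones to ganglion and amacrine cells when light increases. In darkness, glutamate from cones acts on the metabotropic receptor GRM6, whose G protein, built from GNAO1, GNB3 and GNG13, keeps the cation channel TRPM1 closed, and light relieves that block. OFF cone bipolar cells instead use ionotropic kainate receptors, among them GRIK1, and the transcription factor ISL1 is a known marker of ON types.

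The label was checked against these genes. TRPM1 had a UMI in 99.9% of the selected nuclei and GRM6 in 50.9%. The rule set a minimum for the sum of both genes, so a nucleus could be selected on TRPM1 without a GRM6 UMI. ISL1, which the rule did not use, had a UMI in 38.2% of them, against 63.4% of 16436 rod bipolar nuclei and 1.33% of 6944 OFF cone bipolar nuclei, whose median depths were 3592 and 2567 UMIs. The selection was not uniform. A fraction of 3715 nuclei (18.3%) held at least 3 GRIK1 UMIs, and ISL1 had a UMI in 6.84% of these against 45.2% of the rest, so the data go against the ON label for this fraction.

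Transcripts of other cells were also present. Summed markers of rods, cones, Müller glia, amacrine cells, myeloid cells or horizontal cells lay over fixed limits in 6181 nuclei (30.4%). Rod markers were over their limit in 25.7% of the nuclei, cone markers in 5.62%, Müller markers in 4.66%, amacrine markers in 1.5%, myeloid markers in 0.669% and horizontal markers in 0.108%. Removing these nuclei and those with at least 3 GRIK1 UMIs left 11448 trimmed nuclei (56.3%), of which 50.7% had an ISL1 UMI. This trimmed set was chosen after the data had been seen, and results are given with it beside the full selection.

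**Figure D1:**
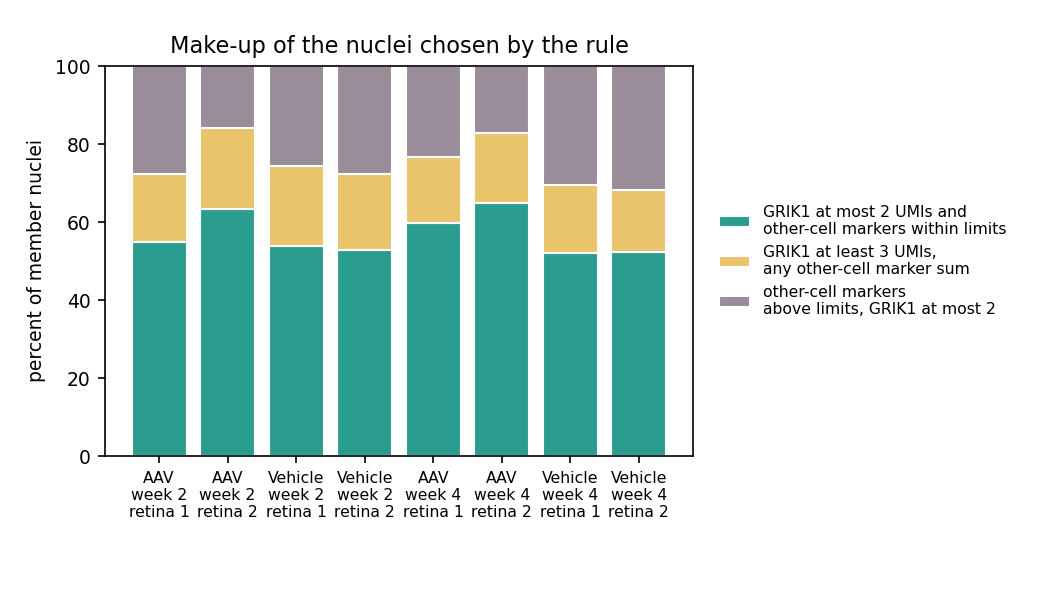
Share of the selected nuclei of each retina (y axis, percent) that were trimmed nuclei, nuclei with at least 3 GRIK1 UMIs, or other nuclei with markers of other cells over a limit, for the 8 retinas (x axis). The trimmed share ran from 52.1% in vehicle retina 1 at week 4 to 64.8% in AAV retina 2 at week 4.

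The trimmed share was 55.0% and 63.3% in the AAV retinas at week 2 against 53.8% and 52.9% in the vehicle retinas. At week 4 it was 59.7% and 64.8% against 52.1% and 52.3%. In the plot of the makeup of each retina, the AAV retinas lay above the vehicle retinas at both weeks.

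Nuclei on either side of each threshold are given once. With exactly 3 TRPM1 and GRM6 UMIs, 3308 nuclei were inside the rule and 19.2% had an ISL1 UMI. With exactly 2, 4541 nuclei were outside it and 12.8% had one. With 1 UMI of PRKCA, CA8 and PRKCQ, 4750 nuclei were inside and 39.5% had an ISL1 UMI, against 44.4% of the 2328 nuclei with 2. With 1 UMI of the 5 excluded genes of other cells, 6230 nuclei were inside and 37.6% had an ISL1 UMI, against 32.4% of the 4234 nuclei with 2. Of the 228 selected nuclei less than 100 UMIs above the depth limit, 22.8% had an ISL1 UMI, against 13.9% of the 144 at most 100 UMIs below it that met the other criteria.

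The selected nuclei took a lower share of barcodes in the AAV retinas than in the vehicle retinas at week 4, and a higher share at week 2. At week 4 they made up 4.55% and 4.28% of the barcodes with at least 1000 UMIs in AAV retinas 1 and 2, and 5.84% and 7.02% in vehicle retinas 1 and 2. The means were 4.42% ± 0.190 (SD, n = 2) and 6.43% ± 0.831 (SD, n = 2). The ranges did not overlap, but 2 retinas against 2 allow no p below 0.333, which is what the two-sided exact permutation test gave for the difference of -2.01 percentage points. Among trimmed nuclei the difference was -0.612 points and among nuclei with at least 2000 UMIs -0.345 points. Lower numbers were not particular to the selected nuclei. Rod bipolar nuclei numbered 1141 and 1434 in the AAV retinas and 2428 and 2245 in the vehicle retinas at week 4. For OFF cone bipolar nuclei the numbers were 1003 and 723 against 1012 and 968, which overlapped. At week 2 the shares were 6.64% and 6.01% in the AAV retinas and 5.28% and 5.55% in the vehicle retinas.

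Several properties moved with these shares at week 4. The median depth of the selected nuclei was 3220 UMIs over the AAV retinas and 2354 over the vehicle retinas. ISL1 had a UMI in 47.4% against 32%. Müller markers were over their limit in 1.31% against 5.50%, rod markers in 20.3% against 31.6%, and myeloid markers in 1.40% against 0.270%. None of these ranges overlapped, each exact permutation p was 0.333, and the part of depth and of other cells in the shares was not tested.

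EGFP, the vector transgene, was detected in a minority of the selected nuclei of every AAV retina. At week 2, 7.89% (95% exact Clopper-Pearson interval 6.87 to 9.02) and 18.0% (16.5 to 19.5) of nuclei had an EGFP UMI in AAV retinas 1 and 2, which were the 2 eyes of 1 animal. At week 4 the shares were 7.64% (6.58 to 8.82) and 10.1% (8.88 to 11.5). The intervals cover counting error only. The right eye at week 2 stood above the other 3 retinas, and the mean over the 4 AAV retinas was 10.9%, given without an SD because they came from 3 animals and both weeks. Among trimmed nuclei the shares were 7.90% and 19.4% at week 2 and 8.36% and 11.7% at week 4.

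Vehicle retinas carried almost none. EGFP had a UMI in 1 of 2717 and 0 of 2655 nuclei at week 2 and in 1 of 2629 and 0 of 2959 nuclei at week 4, and for the 2 retinas with none the exact intervals ended at 0.139% and 0.125%, where 3 nuclei of the total would be 0.113% and 0.101%. As CPM, the gene's share of the summed UMIs of the nuclei scaled to 1e6, EGFP stood at 31.0 and 39.2 in the AAV retinas and at 0.138 and 0 in the vehicle retinas at week 4. It was called higher with an adjusted p of 4.24e-05. Of the positive nuclei, 776 had 1 EGFP UMI, 167 had 2, and the highest count was 7.

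Nuclei that do not express the transgene can hold its RNA from solution. Lymphocyte nuclei, taken as a cell type that should lack it, had an EGFP UMI in 4.98% and 4.13% of cases at week 4, at median depths of 2106 and 2276 UMIs. Thinned to 1000 UMIs per nucleus, the selected nuclei stood at 2.47% (1.87 to 3.20) and 3.70% (2.93 to 4.61) and the lymphocyte nuclei at 1.62% (0.864 to 2.75) and 1.93% (1.06 to 3.21). The thinned intervals of the 2 kinds of nuclei overlapped in both retinas. The share of selected nuclei that themselves expressed EGFP is therefore not fixed by these counts.

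Rod bipolar nuclei had higher EGFP shares than the ON cone bipolar nuclei of the same retina, at 20.4% and 42.4% at week 2 and 19.0% and 22.2% at week 4. After thinning the rod bipolar shares were 8.01%, 15%, 5.78% and 7.11%, against 2.79%, 6.07%, 2.47% and 3.70% for ON cone bipolar nuclei in the same order. OFF cone bipolar nuclei had thinned shares of 2.23%, 8.37%, 1.60% and 2.49%. ON cone bipolar nuclei were thus below rod bipolar nuclei in 4 of 4 AAV retinas and on no fixed side of OFF cone bipolar nuclei.

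**Figure D2:**
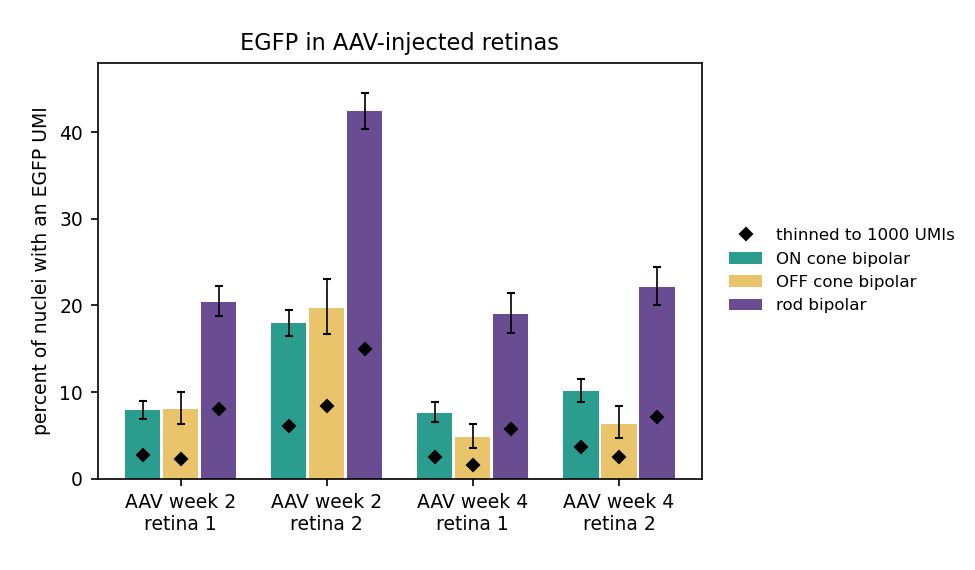
Share of nuclei with an EGFP UMI (y axis, percent) in each of the 4 AAV retinas (x axis), with bars for ON cone, OFF cone and rod bipolar nuclei, exact 95% intervals as error bars, and diamonds for the share after thinning to 1000 UMIs. ON cone bipolar nuclei lay between 7.64% and 18.0% before thinning, below rod bipolar nuclei in every AAV retina.

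The main comparison asked which genes differed between AAV and vehicle in ON cone bipolar nuclei at week 4. UMIs were summed over the selected nuclei of each retina and tested with edgeR. Of 16776 genes tested, 291 were higher (1.73%) and 296 were lower (1.76%) in the AAV retinas at an adjusted p of at most 0.05. None of the called genes overlapped between the arms. At an unadjusted p under 0.05, 1453 genes were higher (8.66%) and 1501 lower (8.95%), 17.6% in all. A lack of overlap alone was common, with 20.8% of all tested genes higher and 28.1% lower without overlap.

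Leaving out a vehicle retina gave fewer calls and leaving out an AAV retina gave more. The total of 587 calls (3.50%) became 292 without vehicle retina 1 and 291 without vehicle retina 2, and 1661 and 1281 without AAV retinas 1 and 2. With the trimmed nuclei, 14292 genes were tested and 222 were called (1.55%), of which 148 were higher (1.04%) and 74 lower (0.518%). Of the 291 higher genes, 139 (47.8%) were called higher among trimmed nuclei too, which was 93.9% of the trimmed calls. For the 296 lower genes the shared calls were 66 (22.3%), or 89.2% of the trimmed calls.

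Interferon-response genes were the largest listed group among the increases. Type I interferon is the secreted alarm signal of virus-sensing cells, and its receptor activates a transcription factor complex containing IRF9 that turns on antiviral genes. In 4 lists covering interferon signaling, viral nucleic acid sensors, antiviral effectors and antigen presentation, 65 of 84 tested genes were higher and 0 were lower. By edgeR at an unadjusted p under 0.05, 71 were higher and 0 lower, and DESeq2 called 64 higher and 0 lower. That is 65 calls where the higher calls over all genes made up 1.73%. Among trimmed nuclei 52 of 79 were higher and 0 lower, and without each retina in turn between 54 and 67 were higher. The lists were chosen with results of these data known, so their count is not independent evidence of the direction.

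Of the signaling genes, 10 of 17 were higher, with a median log2 fold change of 0.73 where the median over all genes was 0.00362. IRF9, a DNA-binding subunit of that complex, stood at 56.3 and 57.0 CPM in AAV retinas 1 and 2 and at 2.48 and 4.60 CPM in vehicle retinas 1 and 2. The arms were far from any overlap, and the 2 AAV retinas were close to each other. IRF9 was 16-fold higher (log2 fold change 4.03 ± 0.23 SE, adjusted p = 5.3e-05).

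USP18, which removes ISG15 from proteins and dampens the receptor, rose from 1.10 and 1.08 to 42.9 and 65.2 CPM, a 49.6-fold difference. IRF1, an early interferon-induced factor, stood at 18.2 and 12.3 against 3.16 and 3.92 CPM, a 4.30-fold increase. IRF7, which amplifies interferon transcription, stood at 11.3 and 9.54 against 1.65 and 3.38 CPM. The IRF7 call (adjusted p = 0.0114) was lost among trimmed nuclei, where its adjusted p was 0.0769, and without vehicle retina 1. The receptor chains IFNAR1 and IFNAR2 were also called higher, but neither was called among trimmed nuclei.

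Among viral nucleic acid sensors, 7 of 8 were higher with a median log2 fold change of 4.69, and 6 of 7 among trimmed nuclei. IFIH1 (MDA5), a cytosolic sensor of double-stranded RNA, stood at 44.7 and 61.9 CPM in the AAV retinas against 0.963 and 1.08 CPM, 52.2-fold higher (log2 fold change 5.72 ± 0.28 SE, adjusted p = 3.72e-05). DDX60, a helicase linked to RNA sensing, stood at 43.4 and 38.4 against 0.138 and 0.135 CPM. Those vehicle values were 2 UMIs in all, so the ratio of 299.9 had a counting interval from 82.7 to 2482. The vehicle retinas were thus close to 0 for DDX60 and near 1 CPM for IFIH1.

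DHX58 (LGP2), a regulator of IFIH1, was 25.5-fold higher, from 0.963 and 0.811 to 23.0 and 22.3 CPM. ZBP1, a sensor of Z-form nucleic acids, stood at 9.45 and 11.9 against 0.275 and 0.541 CPM. CGAS, the cytosolic DNA sensor, stood at 2.36 and 3.92 CPM against 1 vehicle UMI in all, a ratio of 46.1 with an interval from 7.88 to 1857. CGAS was too low to be tested among trimmed nuclei, and its call was lost without vehicle retina 2.

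Antiviral effectors made up the largest of these lists, with 35 of 43 higher and a median log2 fold change of 3.78, or 3.54 when genes absent from the vehicle retinas were set at their bound. IFI44L, an interferon-induced protein of poorly known function, stood at 107 and 170 CPM in the AAV retinas and at 1.38 and 0.811 in the vehicle retinas. IFI6, a small membrane protein that limits viral replication, stood at 90.0 and 192 against 1.10 and 1.35 CPM. IFI44 stood at 58.1 and 115 against 0.413 and 0.676 CPM. In all 3 genes AAV retina 2 was above AAV retina 1, and both were far above the vehicle retinas.

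These differences were 127-fold for IFI44L (log2 fold change 7.01 ± 0.34 SE), 115-fold for IFI6 (6.87 ± 0.47 SE) and 159-fold for IFI44 (7.31 ± 0.49 SE), with adjusted p values of 3.72e-05, 0.00011 and 0.000104. Among trimmed nuclei the log2 fold changes were 7.88, 7.36 and 8.75. HERC6, a ubiquitin ligase family member, stood at 72.4 and 136 against 2.20 and 1.62 CPM, a 54.6-fold increase. The increases of PARP12, 19.5-fold, and of MX1, a GTPase that traps viral particles, 12.2-fold, were smaller.

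MX2 and BST2 were close to 0 in the vehicle retinas. MX2 stood at 23.7 and 27.4 CPM against 1 vehicle UMI, a ratio of 375 with an interval from 67.0 to 14861. BST2 (tetherin), which holds budding virions at the cell surface, was at least 10.9-fold higher against a floor of 3 UMIs over both vehicle retinas. Its level was low, at 2.62 and 1.83 CPM, and its call was lost without either vehicle retina.

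Antigen presentation genes were higher for 13 of 16 tested, with a median log2 fold change of 3.20, and for 10 of 15 among trimmed nuclei. B2M, the light chain of MHC class I, stood at 55.4 and 62.6 CPM in the AAV retinas and at 0.413 and 1.62 in the vehicle retinas, 57.7-fold higher (log2 fold change 5.87 ± 0.32 SE, adjusted p = 4.71e-05). NLRC5, the transactivator of class I genes, stood at 92.8 and 60.7 against 1.79 and 2.84 CPM, 33.1-fold higher. Here AAV retina 1 was the higher for NLRC5 and AAV retina 2 for B2M.

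TAP1 and TAP2, which carry peptides into the endoplasmic reticulum, were 15.6-fold and 33.4-fold higher. PSMB8, an immunoproteasome subunit, was at 8.92 and 4.57 CPM and had no vehicle UMI, so it was at least 33.0-fold higher. CD74 and CIITA, which belong to the class II pathway, were also called higher. CD74 was called among trimmed nuclei too, and CIITA was not.

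**Figure D3:**
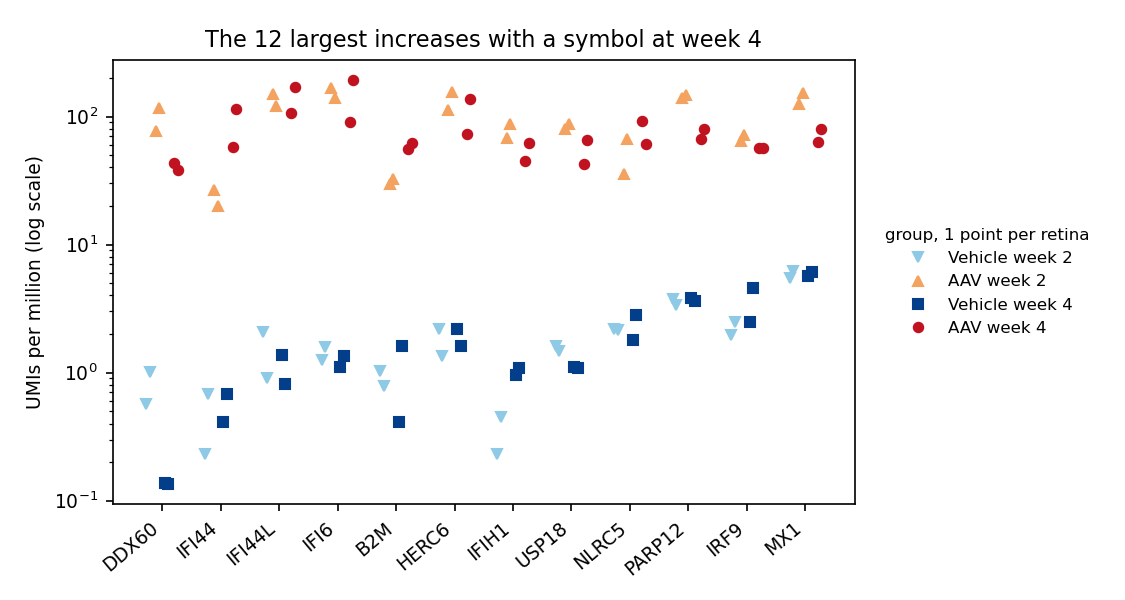
Level in ON cone bipolar nuclei (y axis, CPM on a log scale) of the 12 largest called increases at week 4 among genes with a symbol and a mean of at least 20 CPM (x axis), with a point for each of the 8 retinas. IFIH1 lay at 44.7 and 61.9 CPM in the week 4 AAV retinas and at 0.963 and 1.08 CPM in the vehicle retinas, and no gene shown overlapped between the arms at either week.

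The promoter windows of the increases were searched for GAAANNGAAA, the core letters of the interferon-stimulated response element, on both strands, from 250 bases before to 50 after the RefSeq gene start. A match occurred in 3.58% of 19534 windows of this length and in 2.82% of those of tested genes with a RefSeq start. Of the genes higher at week 4, 213 of 291 had a RefSeq start and 15.5% of these had a match. The share was 39.3% for the 61 of them in the interferon lists and 5.92% for the other 152. Of the lower genes with a RefSeq start, 3.04% had a match, and of the 17 interferon list genes that were tested but not called, 17.6%.

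The windows of the 4 named increases of largest fold change with a match are shown, because these genes carry the main result. RefSeq's gene starts on Sscrofa11.1 set the windows, which read 5′ to 3′ on the gene's strand, and capitals mark each match, with overlapping matches merged and reverse-strand matches reading TTTCNNTTTC.
IFI44L, chr6:134679163-134679462, minus strand: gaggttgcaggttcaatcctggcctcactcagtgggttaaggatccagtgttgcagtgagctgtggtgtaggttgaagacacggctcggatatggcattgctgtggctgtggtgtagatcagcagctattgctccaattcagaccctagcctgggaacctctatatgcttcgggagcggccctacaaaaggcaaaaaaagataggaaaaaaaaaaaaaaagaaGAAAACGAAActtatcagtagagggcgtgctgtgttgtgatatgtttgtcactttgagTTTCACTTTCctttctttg
IFI6, chr6:84858023-84858322, minus strand: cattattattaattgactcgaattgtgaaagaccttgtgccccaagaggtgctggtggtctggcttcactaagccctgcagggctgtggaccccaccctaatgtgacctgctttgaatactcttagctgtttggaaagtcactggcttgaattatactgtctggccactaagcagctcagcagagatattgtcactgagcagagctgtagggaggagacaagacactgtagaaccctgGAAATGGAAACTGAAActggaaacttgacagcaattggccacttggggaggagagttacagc
B2M, chr1:126843994-126844293, minus strand: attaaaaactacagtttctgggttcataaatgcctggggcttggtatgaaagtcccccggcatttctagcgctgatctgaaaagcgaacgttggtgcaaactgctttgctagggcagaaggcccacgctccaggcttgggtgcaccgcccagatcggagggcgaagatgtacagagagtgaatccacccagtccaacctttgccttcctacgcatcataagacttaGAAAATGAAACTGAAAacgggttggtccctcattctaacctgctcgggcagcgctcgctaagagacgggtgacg
IFIH1, chr15:68985096-68985395, minus strand: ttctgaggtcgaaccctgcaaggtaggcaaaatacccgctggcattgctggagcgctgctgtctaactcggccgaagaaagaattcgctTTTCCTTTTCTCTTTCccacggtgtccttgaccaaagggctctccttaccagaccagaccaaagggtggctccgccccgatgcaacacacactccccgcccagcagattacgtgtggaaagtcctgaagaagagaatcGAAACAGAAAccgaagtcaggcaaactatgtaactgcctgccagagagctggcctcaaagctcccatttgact

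IFI44L had 1 match on each strand, IFI6 and B2M each had 2 overlapping matches on the forward strand, and IFIH1 had 1 forward match and 2 overlapping reverse matches. The forward matches began between 6 and 27 bases before the gene start. A match describes these letters only, and binding was not measured.

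The share of nuclei with an effector transcript was higher in the AAV retinas. After thinning each nucleus to 1000 UMIs, 66.7% and 77.6% of nuclei in the AAV retinas had at least 1 UMI of the 47 effector genes in the files, against 36.6% and 34.9% in the vehicle retinas. The means were 72.2% ± 7.72 (SD, n = 2) and 35.8% ± 1.19 (SD, n = 2), with no overlap and an exact permutation p of 0.333, the smallest possible. Summed effector CPM was 1411 and 1919 against 469 and 457, a ratio of 3.60. The ratio was 4.14 among trimmed nuclei, 3.31 among nuclei with at least 3 GRIK1 UMIs, 3.64 in rod bipolar nuclei and 4.21 in OFF cone bipolar nuclei. The part of free effector RNA in the droplets of the AAV retinas in these shares and levels was not tested.

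Nuclei with and without an EGFP UMI were compared within each AAV retina. At week 4, effector CPM was 1501 in EGFP-positive and 1403 in EGFP-negative nuclei of AAV retina 1 and 2277 and 1869 in those of retina 2. At week 2 the same values were 2230 and 1872, and 2912 and 2051. EGFP-positive nuclei were above negative nuclei in 4 of 4 AAV retinas. They were also deeper, and after thinning the shares with an effector UMI at week 4 were 66.5% and 66.7% in retina 1 and 78.2% and 77.6% in retina 2. At week 2 the thinned shares were 78.3% and 73.8% in retina 1 and 80.9% and 73.8% in retina 2, so positive nuclei stayed above negative ones at week 2 and were close to them at week 4. EGFP-negative nuclei of the AAV retinas thus lay far above the 457 and 469 CPM of the week 4 vehicle retinas. An EGFP UMI can come from solution and a nucleus without one can still carry the vector. The split therefore does not separate transduced from untransduced nuclei.

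Clustering of the selected nuclei gave 27 clusters, used as a description. The largest was led by RGS6 and CDH6 (11.0% of nuclei), followed by clusters led by C8B and NELL1 (9.56%), EBF1 and NXPH2 (8.64%), ADAMTSL3 and COL11A1 (8.23%) and SOX6 and DKK2 (8.23%). The cluster led by EBF1 and NXPH2 had an ISL1 UMI in 1.59% of its nuclei. In the 20 clusters with at least 20 nuclei in every week 4 retina, summed effector CPM was higher in both AAV retinas than in both vehicle retinas, with ratios from 1.77 to 4.84.

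The lowest ratio belonged to a cluster led by the cone genes CNGB3 and ARR3. In the 10 of these 20 clusters that were at least 80% trimmed nuclei, ratios ran from 2.94 to 4.84. With the nuclei of the 4 AAV retinas pooled and not thinned, EGFP was found in 2.67% of nuclei in the cluster led by NECAB1 and in 24.9% in the cluster led by EDNRB, the lowest and highest of these 10. A cluster of 118 nuclei was led by ARHGAP15 and by macrophage genes such as CD163. Of its nuclei, 49 and 36 came from the week 4 AAV retinas (2.17% and 1.73% of the selected nuclei) and 4 and 2 from the week 4 vehicle retinas (0.152% and 0.0676%).

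Genes that define the ON bipolar pathway were examined next. Of 11 genes of the ON signaling cascade, 0 were higher and 1 was lower, where 3.50% of all genes were called, with a median log2 fold change of -0.21. At an unadjusted p under 0.05, 1 was higher and 4 were lower, beside 17.6% of all genes in either direction, and DESeq2 called 0 higher and 2 lower. GNB3, the β subunit of the cascade's G protein, stood at 73.7 and 74.3 CPM in the AAV retinas and at 112 and 105 in the vehicle retinas, without overlap (log2 fold change -0.51 ± 0.11 SE, adjusted p = 0.0394). That call was lost among trimmed nuclei, where the log2 fold change was -0.45 and the adjusted p 0.166, and without either vehicle retina. GNG13, the γ subunit, stood at 105 and 76.4 against 160 and 133 CPM and did not pass (adjusted p = 0.0708).

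The other members did not pass either. GNAO1, the α subunit, stood at 503 and 565 against 575 and 559 CPM, which overlapped. NYX, the leucine-rich repeat protein needed to place TRPM1 at the synapse, stood at 64.3 and 75.2 against 52.8 and 59.6 CPM (adjusted p = 0.215). GPR179, which holds the RGS proteins at the dendritic tip, stood at 124 and 113.1 against 123 and 158 CPM (adjusted p = 0.463). For the remaining members, LRIT3, RGS7, RGS11, GNB5, RGS9BP and PCP2, the log2 fold changes lay between -0.62 and 0.20.

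Of the rule's own genes, TRPM1 stood at 2209 and 2267 CPM in the AAV retinas and at 2475 and 2438 in the vehicle retinas. GRM6 stood at 272 and 244 against 277 and 234 CPM. PTPRC, the leukocyte gene CD45 that the rule capped, had 3.67 and 1.44 CPM in the AAV retinas and no vehicle UMI.

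Among bipolar transcription factors, 0 of 18 tested genes were called in either direction by edgeR, with a median log2 fold change of 0.13. At an unadjusted p under 0.05, 5 were higher and 2 lower, beside the same 17.6% of all genes, and DESeq2 called 1 higher. ISL1 stood at 249 and 277 CPM in the AAV retinas and at 210 and 169 in the vehicle retinas, without overlap, and did not pass (log2 fold change 0.51, adjusted p = 0.0682). The call was gained with DESeq2 for ISL1, and for GNG13 of the cascade. OTX2, which specifies photoreceptors and bipolar cells, stood at 160 and 158 against 123 and 125 CPM (adjusted p = 0.0662). PRDM8, a transcriptional regulator of bipolar cells, stood at 36.9 and 45.1 against 27.7 and 27.0 CPM (adjusted p = 0.0687).

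IRX5 and BHLHE23 were too low to be tested, and the other factors had adjusted p values of at least 0.114.

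Of 5 tested genes that mark types of ON cone bipolar cell, 0 were called by edgeR or DESeq2, and 0 had an unadjusted p under 0.05. SOX6 stood at 276 and 323 against 399 and 337 CPM and CPNE9 at 44.6 and 43.8 against 58.1 and 31.0. HTR3A, LRRTM1 and CCK were too low to be tested. Of 9 calcium-binding and bipolar markers, 0 were called by either tool, and among trimmed nuclei 0 of 7 were called by edgeR. At an unadjusted p under 0.05 in edgeR, 4 of the 9 were higher and 3 lower, beside 8.66% and 8.95% of all genes.

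In each list of synapse and excitability genes at most 1 gene was called by edgeR, where 3.50% of all genes were. CPLX3, a complexin of ribbon synapses, stood at 33.3 and 36.1 CPM in the AAV retinas and at 20.9 and 23.3 in the vehicle retinas, 1.57-fold higher (adjusted p = 0.0435), and was the only one of 18 ribbon synapse and transmitter release genes called. Its call was lost among trimmed nuclei (adjusted p = 0.0999), with DESeq2 and without either vehicle retina. None of 17 receptors for inhibitory and other inputs was called by edgeR, and DESeq2 called 1. At an unadjusted p under 0.05 in edgeR 4 were higher, beside 8.66% of all genes.

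Of 18 voltage-gated channel genes, KCND2, an A-type potassium channel, was the only one called by edgeR, and DESeq2 called 2 lower. It fell from 185 and 185 CPM to 119 and 107 CPM (log2 fold change -0.67 ± 0.10 SE, adjusted p = 0.00911). Most KCND2 UMIs came from nuclei outside the trimmed set. Among trimmed nuclei it stood at 16.8 and 14.8 CPM in the AAV retinas and at 55.8 and 44.2 in the vehicle retinas, a log2 fold change of -1.64 with an adjusted p of 0.00177. Its call was lost without either vehicle retina.

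**Figure D4:**
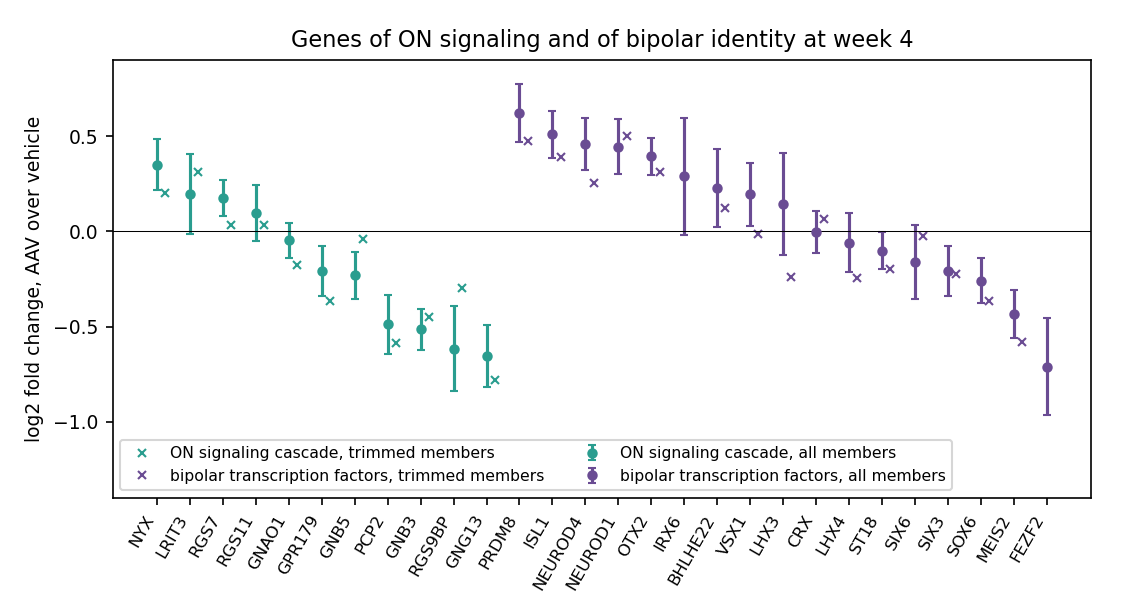
Log2 fold change, AAV over vehicle at week 4 (y axis), of genes of the ON cascade and of the bipolar transcription factors (x axis), as points with standard errors for all selected nuclei and crosses for trimmed nuclei. GNB3 at -0.51 was the only gene shown that passed the test in all selected nuclei.

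Other stress and immune lists were examined in the same way. Complement had SERPING1, the C1 inhibitor, higher (47.8 and 53.8 against 26.3 and 26.4 CPM, 1.93-fold) and CLU lower of 12 tested. In the p53 target list PLK2 was the only edgeR call of 21, and DESeq2 called 0. In the DNA damage and repair list ATR, the replication stress kinase, was lower and the only edgeR call of 15, and DESeq2 called 1 higher and 1 lower. CFLAR, an inhibitor of caspase 8, was the only call of 13 cell death genes, REL of 11 NF-kB genes and CEBPD of 16 neuronal injury genes. Over all genes 1.73% were higher and 1.76% lower. At an unadjusted p under 0.05 in edgeR, where 8.66% of all genes were higher and 8.95% lower, 6 cell death genes were higher and 0 lower, 4 and 0 of NF-kB, 5 and 1 of the p53 targets, 4 and 1 of complement, 5 and 1 of neuronal injury, and 3 and 2 of DNA damage and repair.

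SERPING1, REL, PLK2 and ATR were each lost without either vehicle retina. PLK2, ATR, CFLAR, CEBPD and CLU were lost among trimmed nuclei, and CLU was among the Müller markers that the trimming capped. Among vector entry and restriction genes, FGFR1, a coreceptor of AAV2, was lower and the only call of 14, with an adjusted p of 0.257 among trimmed nuclei. The FGFR1 call was also lost without either vehicle retina, and that of CEBPD without vehicle retina 2. None of 15 nuclear genes of oxidative phosphorylation was called by edgeR or DESeq2. At an unadjusted p under 0.05 in edgeR 4 were lower, beside 8.95% of all genes.

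CDKN1A, a p53 target, was too low to be tested, at 1.71 and 1.05 CPM in the AAV retinas and 0 and 0.135 in the vehicle retinas. Its ratio of 20.2 rested on 1 vehicle UMI and had an interval from 3.24 to 834. Of the chemokines, CXCL10, which draws activated T cells, stood at 6.43 and 2.87 CPM and had no vehicle UMI, so it was at least 22.7-fold higher. CXCL9 was at least 10.6-fold higher, at 1.71 and 2.61 CPM. CCL2, a monocyte attractant, stood at 2.23 and 1.70 CPM against 1 vehicle UMI, a ratio of 28.8 with an interval from 4.79 to 1175.

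These 3 were the calls among 9 tested chemokines and cytokines, and each was a low level spread over few UMIs. CXCL9 and CCL2 were too low to be tested among trimmed nuclei, and their calls were lost without either vehicle retina. CXCL10 was called in both sets, and DESeq2 did not call CCL2.

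Transcripts of other cells were measured beside these results. Of 13 lymphocyte markers, 6 were tested and CD2, IL7R and IGHM were higher. IGHM, the heavy chain of IgM, stood at 13.8 and 25.3 CPM against 1 vehicle UMI (ratio 287, interval 51.1 to 11373) and CD2 at 4.46 and 5.62 CPM against 2 vehicle UMIs (ratio 37.0, interval 9.89 to 311). Summed lymphocyte markers were 66.5 and 92.8 CPM in the AAV retinas and 34.5 and 31.4 in the vehicle retinas, and 69.0 and 96.2 against 36.7 and 28.7 among trimmed nuclei. The sums did not overlap in either set. The call of IL7R was lost without either vehicle retina and with DESeq2.

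CD163, a macrophage scavenger receptor, stood at 7.48 and 9.93 CPM and had no vehicle UMI, so it was at least 42.6-fold higher, and it was too low to be tested among trimmed nuclei. It was the only call of 6 tested microglia and macrophage markers. Their sum was 36.9 and 40.9 CPM against 23.7 and 17, and 22.0 and 19.6 against 22.5 and 14.4 among trimmed nuclei, where the arms overlapped. The trimmed set was chosen with a cap of 1 UMI per nucleus on these same markers. That cap limited their sum and the level of CD163 there, so the overlap does not bear on myeloid RNA in the other results. No listed marker of another cell type was at 0 over the selected nuclei. The part of leukocyte RNA in the increases was not tested.

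Summed markers of rods, cones and Müller glia were lower in the AAV retinas, and those of astrocytes overlapped at 73.7 and 54.0 against 68.5 and 66.9 CPM with 0 of 3 called by edgeR or DESeq2 and 0 at an unadjusted p under 0.05. Summed rod markers were 1797 and 1297 CPM in the AAV retinas against 2940 and 2961, and 453 and 400 against 756 and 788 among trimmed nuclei. SAG, the rod arrestin, stood at 916 and 574 against 1635 and 1780 CPM, and GNGT1, CNGA1 and PDE6A were the other rod calls of 10. ARR3, the cone arrestin, PAX6, an amacrine and ganglion cell factor, and NEFL, a neurofilament, were lower too. Among trimmed nuclei, SAG, GNGT1, CNGA1 and ARR3 were still called and PDE6A, PAX6 and NEFL were not. SAG, CNGA1, PDE6A, ARR3 and PAX6 were among the markers whose sums the trimming capped, so their trimmed results were partly set by it. GNGT1 and NEFL were not among those markers. PDE6A, ARR3 and NEFL lost their calls without either vehicle retina, and GNGT1 and CNGA1 without vehicle retina 1.

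Summed Müller markers were 123 and 86.1 against 268 and 261 CPM, and 93.5 and 78.8 against 143 and 143 among trimmed nuclei. CRYM, RLBP1, DKK3 and CLU were lower of 8 tested Müller markers, and 0 of 7 were called among trimmed nuclei. By edgeR at an unadjusted p under 0.05, 5 of those 7 were lower. The share of all genes at that p was not counted among trimmed nuclei, so this count cannot be set against a background. The trimming capped the sum of Müller markers that included RLBP1, DKK3 and CLU, so their trimmed results were partly set by it. PDGFRB, FLT1 and KDR were lower of 4 tested endothelial and pericyte markers, and 0 of 3 among trimmed nuclei. Of those 3, 2 were lower at an unadjusted p under 0.05 in edgeR, again without a counted background. Summed endothelial and pericyte markers were 35.7 and 26.5 against 84.1 and 105 CPM, and 24.5 and 19.8 against 26.2 and 43.1 CPM among trimmed nuclei. Neither sum overlapped between the arms. The calls of DKK3 and PDGFRB were lost without vehicle retina 1 and vehicle retina 2, respectively.

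Among genes with a symbol and a mean of at least 20 CPM, the 12 largest called decreases were TF, TOX3, ADAMTS18, PTGDS, JPH1, SFRP2, CYTB, COLEC12, ND5, COX3, COL23A1 and COL25A1. TF, the iron carrier transferrin, stood at 8.53 and 1.70 CPM in the AAV retinas against 65.8 and 58.2 in the vehicle retinas (log2 fold change -3.56 ± 0.44 SE, adjusted p = 0.00333). PTGDS, a prostaglandin D synthase, stood at 24.3 and 18.7 against 104 and 132 CPM (-2.42 ± 0.17 SE). SFRP2, a secreted Wnt-binding protein, stood at 35.2 and 20.8 against 151 and 144 CPM (-2.36 ± 0.21 SE). In each of these the 2 AAV retinas were below both vehicle retinas.

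Among trimmed nuclei the log2 fold changes were -3.40 for TF, -2.04 for PTGDS and -2.34 for SFRP2, and all 3 were still called. Summed Müller markers were lower in the AAV retinas there too, and the part of other cells' RNA in these decreases was not tested. ADAMTS18 and COL23A1 were no longer called there, with adjusted p values of 0.216 and 0.0948. COLEC12, COL23A1, TOX3 and ADAMTS18 were also among the leading genes of the cluster that carried the Müller gene SLC1A3, which held 4.30% of the nuclei. At week 4 that cluster held 23 and 1 nuclei of the AAV retinas and 135 and 175 of the vehicle retinas (5.14% and 5.91%), so it was nearly absent from AAV retina 2 and small in AAV retina 1.

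Transcripts of the mitochondrial genome, which are made outside the nucleus, were lower. Of 13 such genes tested, 11 were lower and 0 higher, and 9 of 12 were lower among trimmed nuclei. COX3, a subunit of cytochrome oxidase, stood at 98.8 and 82 CPM in the AAV retinas and at 402 and 405 in the vehicle retinas (log2 fold change -2.12 ± 0.11 SE, adjusted p = 4.63e-05). Summed over the 13 genes, the levels were 626 and 518 CPM against 2217 and 2290 CPM. In rod bipolar nuclei 12 of these genes were lower, where 452 of 16179 genes were higher (2.79%) and 298 lower (1.84%), 750 in all (4.64%). In OFF cone bipolar nuclei 9 were lower, where 200 of 12965 genes were higher (1.54%) and 90 lower (0.694%), 290 in all (2.24%). Carryover of cytoplasm into the nuclear preparations was not tested.

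Of identifiers without a symbol, ENSSSCG00000038719 stood at 85.8 and 54.0 CPM in the AAV retinas at week 4 and had no UMI in the vehicle retinas, so it was at least 341-fold higher, and it had no UMI in any week 2 retina. ENSSSCG00000036224 stood at 25.3 and 119 against 0.688 and 0.406 CPM. ENSSSCG00000015545 was lower, at 17.3 and 11.9 against 182 and 195 CPM, and ENSSSCG00000007336 at 4.46 and 4.83 against 44.0 and 32.5 CPM.

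**Figure D5:**
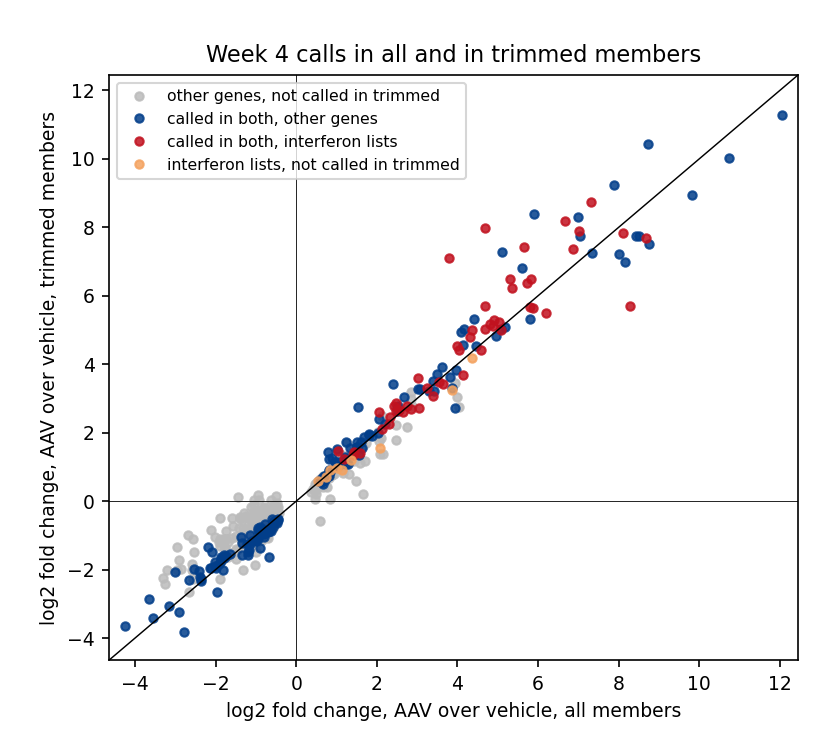
Log2 fold change at week 4 in all selected nuclei (x axis) against trimmed nuclei (y axis), with a point for each called gene that was also tested among trimmed nuclei, the selection genes left out, colors for the interferon lists and the trimmed calls, and a diagonal for equal values. IFI44L lay at 7.01 and 7.88 and KCND2 at -0.67 and -1.64, while COL23A1, no longer called in the trimmed nuclei, lay at -2.11 and -0.85.

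At week 2, with 1 animal per arm and no test, the same kind of genes stood apart. Of 9069 genes with a mean of at least 10 CPM, 89 (0.981%) were at least 2-fold higher and 34 (0.375%) at least 2-fold lower, 123 in all (1.36%), with both eyes of one animal beyond both eyes of the other. Among trimmed nuclei 93 were higher and 32 lower, 125 in all. In the interferon lists 40 of 55 measured genes were higher and 0 were lower, with a median log2 ratio of 3.46. DDX60 stood at 76.9 and 117 against 0.573 and 1.01 CPM, a ratio of 125 with a counting interval from 74.1 to 229.

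RSAD2 (viperin), an antiviral enzyme, stood at 34.3 and 49.2 CPM against 1 vehicle UMI, a ratio of 749 with an interval from 134 to 29632. IFIH1 had a ratio of 231 and IFI6 of 107. The share of nuclei with an effector UMI after thinning was 74.2% and 75.1% against 32.9% and 33.0%. The 2 eyes of each animal were close to each other in this share.

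Other genes past 2-fold at week 2 included CPNE9, a type marker, at 55.7 and 70.3 against 30.5 and 31.7 CPM, a ratio of 2.05. VWC2, a secreted BMP antagonist, was the lowest, at 15.4 and 7.03 against 71.8 and 79.5 CPM, a ratio of 0.142. PLA2G7 had a ratio of 0.200 and SLC16A9 of 0.230. None of 11 cascade genes and none of 15 measured transcription factors was past 2-fold.

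The difference of the AAV response between weeks was tested with the 2 eyes of each week 2 animal summed, so each week 2 arm was 1 sample, assumed to vary like the week 4 animals. A week cannot be told apart here from the single week 2 animals, and the adjusted p values do not cover the spread between animals at week 2. Of 18198 genes, 7 (0.0385%) had a higher and 30 (0.165%) a lower response at week 4 than at week 2, 37 in all (0.203%). Among trimmed nuclei 4 of 16174 (0.0247%) were higher and 8 (0.0495%) lower, 12 in all (0.0742%). In the interferon lists 0 of 87 genes were called by edgeR or DESeq2, with a median difference of -0.14 on the log2 scale. At an unadjusted p under 0.05 in edgeR, 7 of the 87 were higher and 13 lower. Of all genes 2086 (11.5%) had such a p, 5.46% higher and 6% lower. Of the 11 ON cascade genes, 0 were called, and 0 were higher and 5 lower at that p. By edgeR without vehicle retina 1 or 2 at week 4, 0 genes were called, with 1462 and 1521 genes at an unadjusted p under 0.05. Without AAV retina 1 or 2 the counts were 1042 and 616, and DESeq2 on all retinas called 83.

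The 7 with a higher response included SIDT1, a nucleic acid transporter family member. SIDT1 stood at 572 and 571 CPM against 223 and 191 at week 4 and at 231 and 254 against 192 and 207 at week 2. Its response was higher by 1.27 on the log2 scale at week 4 (adjusted p = 0.0324), and by 1.41 among trimmed nuclei. COX3 had a lower response by -1.79, since it stood at 250 and 281 against 282 and 364 CPM at week 2. Other mitochondrial genes were already past 2-fold lower at week 2, where ND2 stood at 36.7 and 33.9 against 82.6 and 112 CPM and ND4L had a ratio of 0.453.

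The response of ON cone bipolar nuclei was set against that of rod bipolar nuclei of the same week 4 retinas, with the animal as a block. Of 17719 genes, 165 (0.931%) had a higher and 189 (1.07%) a lower response in ON cone bipolar nuclei, 354 in all (2.00%). Among trimmed nuclei 181 of 15153 (1.19%) were higher and 219 (1.45%) lower, 400 in all (2.64%). Without the block edgeR called 0, with 1167 genes at an unadjusted p under 0.05, and DESeq2 with the block called 119. Without vehicle retina 1 the 354 calls became 104 and without vehicle retina 2 they became 230. Of 85 interferon list genes, 1 was called, CD274 (PD-L1), and among trimmed nuclei OAS2.

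Among the differences of smallest adjusted p, CCDC85A stood at 109 and 76.6 against 112 and 79.1 CPM in ON cone bipolar nuclei and at 99.6 and 72.8 against 410 and 206 CPM in rod bipolar nuclei, a difference of 1.79 on the log2 scale. SLC12A2, a sodium, potassium and chloride cotransporter, stood at 131 and 138 against 139 and 165 CPM and at 81.6 and 97.8 against 37.0 and 32.6 CPM in rod bipolar nuclei, a difference of -1.48. In ON cone bipolar nuclei the arms overlapped for CCDC85A and did not for SLC12A2, whose AAV retinas lay slightly below the vehicle retinas without passing the test (adjusted p = 0.61). In rod bipolar nuclei the arms of neither gene overlapped.

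Against OFF cone bipolar nuclei, 13 of 16492 genes (0.0788%) had a higher and 70 (0.424%) a lower response in ON cone bipolar nuclei, 83 in all (0.503%). Among trimmed nuclei 4 of 13975 (0.0286%) were higher and 19 (0.136%) lower, 23 in all (0.165%). Without the block 1 gene was called and DESeq2 called 14. Without vehicle retina 1 or 2 the 83 calls became 154 and 177. None of 84 interferon list genes was called by edgeR or DESeq2 in this comparison. At an unadjusted p under 0.05 in edgeR, 3 were higher and 2 lower. The share of all genes at that p was not counted here, so these counts cannot be set against a background. The median difference of the lists was -0.06 on the log2 scale, and 0.10 among trimmed nuclei. DIO2, a thyroid hormone deiodinase, stood at 3.02 and 1.83 against 18.4 and 17.7 CPM in ON cone bipolar nuclei and at 29.9 and 18.9 against 28.6 and 36.8 CPM in OFF cone bipolar nuclei, a difference of -2.47 that was also called among trimmed nuclei.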

How the data were processed

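Nuclei were profiled with droplet 3′ libraries, 4 lanes per retina for 8 retinas of 6 animals. The authors deposited UMI count matrices per lane, made with Cell Ranger 8.0.0 against Sscrofa11.1 with EGFP added, and these raw counts were used here without normalization. Of 35683 genes, 18050 had no symbol in the files, and 80 names were added from a reference table. No doublet caller was run. Members and gene lists were chosen with earlier results of these data known.

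Counts of the selected nuclei were summed per retina. Genes passing filterByExpr were tested in R 4.3.3 with edgeR 4.0.16 (TMM scaling, quasi-likelihood test, Benjamini-Hochberg adjustment over all genes tested, threshold 0.05), and with DESeq2 1.42.0 as an alternative. The study analyzed its nuclei in Seurat and names no test for its comparison of AAV with vehicle. Sums per retina were used here so that nuclei were not treated as replicates. In the comparisons with other bipolar nuclei the animal was a block. Week 2 values have no test and list genes past 2-fold at 10 CPM or more, where CPM is a gene's share of the summed UMIs scaled to 1e6. Single values were compared by two-sided exact permutation in scipy 1.17.1, whose smallest p for 2 against 2 is 0.333. Shares carry exact 95% binomial intervals, and a group at 0 was given a floor of 3 UMIs. In thinning, 1000 UMIs were drawn from each nucleus. Nuclei were clustered with leidenalg 0.10.2 on 2000 variable genes and 20 components at resolution 0.3.

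Trimmed nuclei had at most 2 GRIK1 UMIs and at most 4 UMIs of rod markers, 2 of cone, amacrine or Müller markers and 1 of myeloid or horizontal markers. The named genes were ISL1, the cascade, transcription factor and type marker lists, up to 5 called genes per other list and direction without overlap, the 12 largest called changes each way at a mean of at least 20 CPM, up to 2 identifiers without a symbol each way, the 5 differences of smallest adjusted p each way, and EGFP, CDKN1A, CXCL10 and CCL2. Some genes that this rule names are not reported here. On counts simulated for the week 4 comparison with 16786 genes, of which 200 were changed, 54% of 2-fold and 86% of 4-fold changes were recovered and 9.68% of calls were unchanged genes.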

Additional observations from a re-analysis of the deposited data

Results flagged for a closer look

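A test of the difference itself called the genes below, between weeks or between kinds of nuclei, and they are given as log2 differences of the AAV response. The count of calls in each comparison changed widely when a retina was left out.

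Each week 2 arm was 1 animal, so the differences between weeks cannot be told apart from those single animals, and edgeR called 0 genes without either week 4 vehicle retina. Between week 4 and week 2, the response of ON cone bipolar nuclei was higher at week 4 for SLC16A9 (3.97), ARHGAP15 (3.74), FLVCR1 (1.74), TOPAZ1 (1.70) and SIDT1 (1.27). ARHGAP15, a Rac GTPase-activating gene that also led the cluster of macrophage genes, stood at 34.9 and 26.5 against 3.85 and 2.57 CPM at week 4 and at 4.70 and 3.20 against 4.93 and 5.28 CPM at week 2. It was not called among trimmed nuclei (adjusted p = 0.168). SLC16A9, a carnitine transporter, stood at 16.8 and 34.9 against 6.60 and 8.65 CPM at week 4 and at 4.96 and 4.03 against 21.4 and 17.2 CPM at week 2, so its 2 weeks lay on opposite sides. The response was lower at week 4 for SLC4A5 (-3.61), FLT1 (-3.40), ENSSSCG00000015545 (-3.18), COX3 (-1.79) and ENSSSCG00000018063 (-1.48), and SLC4A5 and FLT1 were not called among trimmed nuclei.

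Against rod bipolar nuclei, the response was higher in ON cone bipolar nuclei for SLC16A9 (1.98), CCDC85A (1.79), LAMB4 (1.53), SMPD3 (1.30) and ENSSSCG00000041432 (1.20). It was lower for ENSSSCG00000051851 (-1.66), ENSSSCG00000033805 (-1.63), SLC12A2 (-1.48), ENSSSCG00000054350 (-1.36) and NFIB (-1.18). NFIB, a nuclear factor I gene, stood at 240 and 252 against 228 and 242 CPM in ON cone bipolar nuclei and at 181 and 161 against 73.1 and 65.3 CPM in rod bipolar nuclei. All 10 were called among trimmed nuclei too.

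Against OFF cone bipolar nuclei, it was higher for FOXP2 (2.12), HHATL (1.00), ANKRD55 (0.64), PAG1 (0.63) and SIDT1 (0.61), and none of these 5 was called among trimmed nuclei. It was lower for PRLR (-2.57), DIO2 (-2.47), ADAMTS18 (-2.08), ANO4 (-1.84) and SYNPR (-1.48), of which DIO2 alone was called among trimmed nuclei (adjusted p = 0.0344). PRLR and SYNPR were leading genes of a cluster of 44 nuclei, 61.4% of them over the amacrine limit. At week 4 it held 0 and 0 nuclei of the AAV retinas and 1 and 7 of the vehicle retinas. ANO4 was a leading gene of a cluster with 25.6% of nuclei over the amacrine limit, and ADAMTS18 of the cluster that carried SLC1A3. PRLR, the prolactin receptor, stood at 6.82 and 2.09 against 6.33 and 13.4 CPM in ON cone bipolar nuclei and at 96.4 and 34.8 against 19.1 and 29.0 CPM in OFF cone bipolar nuclei.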

How the results depend on the processing

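No named called gene changed sign under any alternative that tested it. Of genes that had not passed, LHX3 went from 0.14 to -0.24, VSX1 from 0.20 to -0.01, KCNG4 from 0.18 to -0.08 and CPNE9 from 0.03 to -0.02 among trimmed nuclei, CRX stayed near 0, and the median difference of the interferon lists from OFF cone bipolar nuclei went from -0.06 to 0.10. The 587 genes called at week 4 became 48 without the filter on low counts, which tests many more genes. Alternatives chosen after seeing the data gave 289 with only nuclei of at least 3 GRIK1 UMIs, 222 with trimmed nuclei and 196 with trimmed nuclei and DESeq2. Leaving out 1 retina gave 291 to 1661 calls, and 153, 179, 279 and 436 among trimmed nuclei. The 65 interferon list genes became 19 without the filter and 39 with at least 3 GRIK1 UMIs. The mean EGFP share of 10.9% became 2.71% at 2 or more EGFP UMIs and 3.76% after thinning. At week 2, the 123 genes past 2-fold became 201 in right eyes, 52 at 4-fold and 31 at 50 CPM or more. For the difference between weeks, 37 calls became 83 with DESeq2, 59 at 2000 UMIs or more, 12 with trimmed nuclei, 20 without nuclei of 3 or more Müller UMIs and 0 to 1042 when 1 retina was left out. Against rod bipolar nuclei, 354 calls became 188 with at least 6 PRKCA, CA8 and PRKCQ UMIs, 119 with DESeq2, 0 without the animal block and 104 to 468 when 1 retina was left out. Against OFF cone bipolar nuclei, 83 calls became 14 with DESeq2, 1 without the block, 23 with trimmed nuclei and 110 to 177 when 1 retina was left out. The cause of the other changes was not tested. Of 71 named called genes, DESeq2 still called 67, the unfiltered fit 19, trimmed nuclei 45 of 64 tested, and 18 were called under every alternative that tested them.

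No paired analysis was possible because the week 4 retinas of the 2 arms came from different animals. The retina numbers used here are names only and pair no retinas. With 2 retinas per arm, exact tests could not go below 0.333, and genes near 1 CPM rested on a few UMIs per retina.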
